A study of Mus musculus with 6 samples.

Results

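Levels of 13277 genes were compared between the array of mouse embryonic stem cells kept in leukaemia inhibitory factor (LIF) and the array of the same line 4 days after LIF was taken away, both with full-length DNMT1. A gene was included where a single gene symbol named it and its brightest probe set reached the detection floor on average over the 6 arrays of the study, which held for 13277 of 18193 genes. The stem cells carry knockouts of Dnmt1, Dnmt3a and Dnmt3b and express full-length DNMT1 throughout from an added copy. A second line with the same knockouts expresses DNMT1 without its first 602 amino acids and is called the deletion line here. Day 0 cells grew in DMEM with 10% FBS and LIF. Day 4 cells had formed embryoid bodies for 1 day in MEF medium lacking LIF and then grown attached to a plate for 3 days, still without LIF. Day 7 cells had received 3 more days in medium with 10% KSR (knockout serum replacement) and 10 ng/ml Activin A. LIF removal, aggregation and attachment therefore came together between day 0 and day 4, and their parts cannot be told apart. Each form of DNMT1 is represented by 1 line, with 1 array for each day. Because there were no replicate cultures, every difference below is that of 1 array from 1 array, with no test. The spread between probe sets of a gene on the same arrays is its only measured error. That spread is technical and holds no difference between cultures.

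LIF binds the receptor pair Lifr and Il6st (gp130), and the kinase Jak1 then phosphorylates the transcription factor Stat3, which in mouse stem cells keeps up a set of naive transcription factors that includes Klf4 and Tfcp2l1. Without LIF, mouse stem cells are known to leave the naive state and pass through a formative state marked by Fgf5, Otx2 and Pou3f1 on the way to the germ layers. Visceral endoderm, the outer layer of an embryoid body, is another cell type known to form under these conditions.

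Levels are log2 MAS5 signals of a gene's brightest probe set. The floor was a signal of 41.2 (log2 5.37), to which dimmer values were raised, so a fold change against it is a lower bound. A gene was counted as higher or lower at day 4 where the 2 arrays were at least 2-fold apart and the brighter one reached 2 times the floor. By this rule 1081 genes (8.14%) were higher at day 4, 668 (5.03%) were lower and 1749 (13.2%) were apart in either direction. Of the genes counted, 203 of the 1081 were at the floor on day 0 and 111 of the 668 were at it on day 4. The ratio of higher to lower counts depended on how the arrays were scaled. As deposited, 61.8% of the counted genes were higher, with a median difference over all genes of 0.03. Centring both arrays on their median shifted all differences by -0.11 and gave 892 higher and 832 lower genes (51.7% higher), and quantile normalization gave 930 and 762 (55%). Small medians are therefore to be read against that shift. At least 4-fold differences were seen for 203 genes that were higher (1.53%) and 118 that were lower (0.889%), and at least 16-fold differences for 10 and 3.

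**Figure D1:**
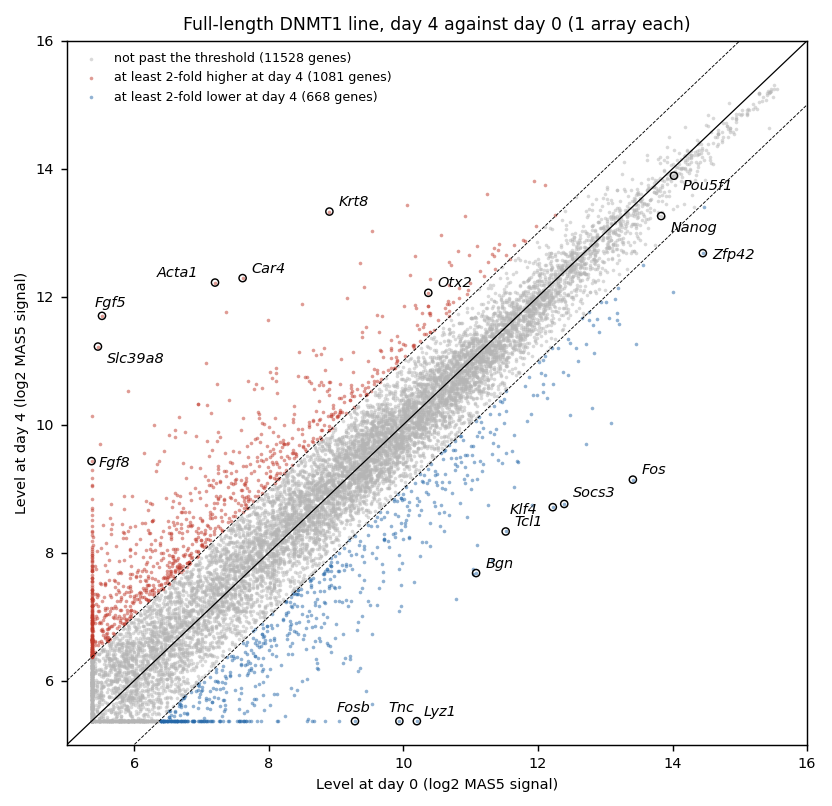
Level of each of the 13277 genes on the day 4 array (y axis, log2 MAS5 signal) against the day 0 array (x axis, log2 MAS5 signal) of the full-length line, 1 point a gene; dashed lines mark 2-fold, red points are the 1081 genes counted as higher and blue points the 668 counted as lower. Fgf5, Slc39a8, Acta1, Car4 and Krt8 lie far above the diagonal, Fos, Socs3, Klf4, Tnc and Lyz1 far below it, and Pou5f1 and Nanog stay within the dashed lines.

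The size of the difference can be set beside other pairs of arrays in the study. Day 4 against day 0 in the deletion line gave 1371 genes at least 2-fold apart (10.3%), and the 2 lines differed by that much for 793 genes (5.97%) at day 0 and again for 793 at day 4. The share counted as higher was 12.9% of the 3259 genes with a mean level below 7 and 2.33% of the 2403 genes with a mean level of 11 or more, so dim genes hold many of the counts. Among 5274 genes with at least 2 probe sets reaching 2 times the floor, the median SD between probe sets of a gene was 0.21 on the log2 scale, and the 90th percentile was 0.57. Ranges and numbers of probe sets given for a gene below cover those that reached this level. Of the 369 genes counted as higher with such probe sets, 351 (95.1%) had all of them in the same direction and 224 (60.7%) had all of them at least 2-fold higher. Of the 217 counted as lower, the corresponding numbers were 191 (88.0%) and 106 (48.8%).

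The cells were checked against markers of their labelled type and of other types the cultures could hold. The level of Pou5f1 (Oct4), the factor that defines pluripotent cells, was 14.02 at day 0 and 13.89 at day 4. Sox2, its partner, stood at 13.46 and 12.69. Nanog read 13.83 and 13.26. Zfp42 (14.45 and 12.68) and Esrrb (11.69 and 9.43), also stem cell markers, were more than 2-fold lower at day 4. Both days therefore carried Pou5f1, Sox2 and Nanog at a high level, while Zfp42 and Esrrb were lower at day 4. Most fibroblast markers were present at day 0 and lower at day 4. Col1a2, a collagen of fibroblasts, had a level of 10.39 and then 8.10, and the matrix protein gene Postn 9.10 and then 6.27. Col3a1 (8.65 and 6.52), Thy1 (9.17 and 7.17) and S100a4 (9.54 and 5.64) were also more than 2-fold lower. Col1a1 (6.77 and 6.18) and Dcn (7.26 and 6.68) were not 2-fold apart, and Lum read the floor and then 5.41. Of 36 measured fibroblast genes, 23 (63.9%) were lower, against 5.03% of all genes, and 3 (8.33%) higher, with a median difference of -1.32. The summed signal of the 36 genes was nearly equal, 19428 and 19363, because Acta2 and Tagln, which contractile cells of other kinds also express, were among the 3 that were higher. The labels name no feeder cells. Fewer cells of a type and less RNA per cell cannot be told apart in these samples.

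The knocked-out genes themselves were read first as a check of the labels. Dnmt1 probe sets detect the added copy as well as any transcript left from the locus, and the brightest read 9.65 at day 0 and 8.77 at day 4, with the 3 probe sets between -1.77 and -0.31 (log2, day 4 minus day 0). Dnmt3b read 8.84 and 9.71, and its 2 probe sets differed by 0.10 and 0.87. Dnmt3a was below the floor on average over the 6 arrays. Which part of each locus is missing is not given in the sources used here, so these values do not test the knockouts.

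Among genes of LIF signalling many were lower at day 4 and few were higher. Of 32 measured genes of the LIF and STAT3 pathway, 14 (43.8%) were lower against 5.03% of all genes, 2 (6.25%) were higher against 8.14%, and the median difference was -0.64. Socs3, the feedback inhibitor that STAT3 itself induces, had a level of 12.39 at day 0 and 8.76 at day 4, which is 12.4-fold lower. Its 3 probe sets spanned -3.63 to -2.72, so the direction did not depend on the probe set. In the deletion line the same gene went from 12.48 to 10.23, and at day 7 it read 10.35 in the full-length line.

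The receptor and the signal transducer were lower as well. Lifr, the LIF receptor, had a level of 10.84 at day 0 and 8.78 at day 4 in its brightest probe set, 4.17-fold lower. Its other probe sets were dim and did not move together, at -1.11 and 0.20. Il6st, the shared receptor chain gp130, read 9.65 and 8.63 (2.03-fold lower), with 3 probe sets from -1.07 to -0.62. Osmr, the receptor chain for oncostatin M, read 7.17 and then the floor, at least 3.49-fold lower. Stat3 itself had levels of 10.20 and 8.86, 2.53-fold lower, and the 3 of its 4 probe sets that were bright enough to be read were lower (-1.34 to -0.78). The kinases did not share this. Jak1 read 9.50 and 9.63, Tyk2 9.31 and 8.82, and Jak2 8.26 and 9.21, none of them 2-fold apart. Stat5b, a related transcription factor, went the other way, from 6.68 to 7.77 (2.13-fold higher), while Stat5a was at 6.49 and 6.32.

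Targets of STAT3 in stem cells made up most of the 14 genes. Klf4, the naive factor most directly tied to LIF, had levels of 12.22 and 8.71, 11.4-fold lower, with its 2 probe sets at -3.51 and -2.95. Bcl3, a co-regulator of NF-kB proteins, read 9.32 and 6.92 (5.28-fold lower). Gbx2 read 8.88 and 6.55 (5.03-fold lower), and Tfcp2l1 11.14 and 9.43 (3.27-fold lower). These 4 are transcription regulators. The kinase genes Pim1 and Pim3 were lower by less, at 2.10-fold (11.44 to 10.37) and 2.69-fold (13.18 to 11.75). Junb read 10.09 and 8.25, 3.58-fold lower. Icam1, an adhesion receptor, had levels of 10.28 and 9.12, 2.23-fold lower. Some genes that are also known to respond to LIF were not 2-fold apart: Myc stood at 9.97 and 10.11, Socs2 at 11.94 and 11.55, and Cish at 8.05 and 8.10. Ier3, a stress-response gene, was 2.35-fold higher (9.12 to 10.35).

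**Figure D2:**
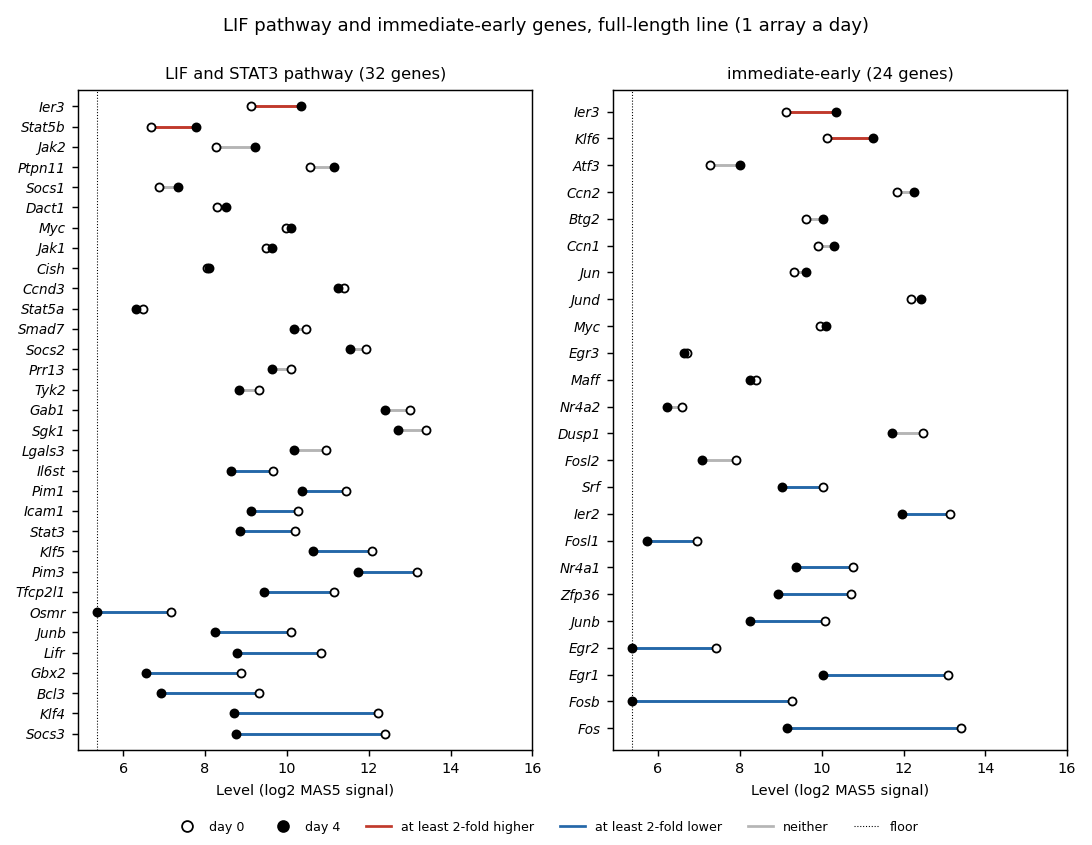
Level on the day 0 array (open circles) and the day 4 array (filled circles) of the full-length line, x axis in log2 MAS5 signal, for the 32 measured genes of the LIF and STAT3 pathway (left) and the 24 measured immediate-early genes (right), with red bars for genes counted as higher, blue for lower, grey for neither, and a dotted line at the floor. On the left 14 genes are lower and 2 higher, with Socs3 and Klf4 the farthest apart, and on the right 10 are lower and 2 higher, with Fos the farthest apart.

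The promoters of Socs3 and Icam1 show what a match to the letters that STAT proteins are known to prefer looks like in this pathway. Promoters here are the 250 bases before the start in the RefSeq annotation of GRCm38.p6, searched on both strands for TTCCNGGAA and for the looser TTCNNNGAA, which contains it. Socs3 is on the minus strand at chr11:117969367-117969616, and Icam1 on the plus strand at chr9:21015690-21015939; capitals mark the match.
Socs3: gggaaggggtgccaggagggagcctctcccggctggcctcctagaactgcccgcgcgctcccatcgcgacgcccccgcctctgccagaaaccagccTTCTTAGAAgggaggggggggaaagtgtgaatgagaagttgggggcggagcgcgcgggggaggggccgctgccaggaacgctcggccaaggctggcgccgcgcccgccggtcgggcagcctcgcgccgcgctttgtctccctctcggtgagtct
Icam1: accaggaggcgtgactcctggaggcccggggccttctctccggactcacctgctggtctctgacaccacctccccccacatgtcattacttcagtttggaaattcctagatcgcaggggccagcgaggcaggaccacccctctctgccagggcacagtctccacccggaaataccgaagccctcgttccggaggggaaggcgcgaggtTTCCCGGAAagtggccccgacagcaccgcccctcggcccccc
The Socs3 match begins 154 bases before the start and is of the looser kind only, and the Icam1 match begins 42 bases before it and fits both. Of 28 genes of the pathway list whose promoter was listed, 1 (3.57%) held TTCCNGGAA, against 1.09% of all 27025 genes, and 4 (14.3%) held TTCNNNGAA, against 8.13%. By promoter rather than by gene, 0.913% and 7.02% of 32851 promoters held them. The other 2 genes with the looser match, Gab1 and Sgk1, were not 2-fold apart (13.00 to 12.41 and 13.40 to 12.71). With 4 genes the shares differ by few promoters, and a match is a description of the letters only. In the naive list 0 of 13 genes held TTCCNGGAA and 1 (7.69%) the looser match. Of 19 immediate-early genes 0 and 1 (5.26%) did, and of 24 contractile genes 0 held either.

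Naive pluripotency genes were lower almost throughout. Of 21 measured genes, 18 (85.7%) were lower, 0 were higher, and the median difference was -1.77, against 0.03 over all genes. Klf4, Klf5, Tfcp2l1, Gbx2 and Stat3 are on the LIF list too, so both counts of lower genes include them. Tcl1, a co-activator of the kinase Akt, had levels of 11.52 and 8.33 (9.13-fold lower). The nuclear receptor genes Nr0b1, Nr5a2 and Esrrb were lower together. Nr0b1 read 12.80 and 10.26 (5.82-fold lower), Nr5a2 11.26 and 8.74 (5.74-fold lower), and Esrrb 11.69 and 9.43 (4.79-fold lower). All 4 probe sets of Nr5a2 and all 3 of Esrrb were at least 1.49 lower on the log2 scale. Tbx3, a T-box factor of the naive network, read 9.47 and 7.25 (4.66-fold lower). Klf2, which overlaps Klf4 in function, read 14.01 and 12.07 (3.84-fold lower), and Klf5 12.07 and 10.64 (2.69-fold lower, but with its other probe set at -0.46).

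Zfp42 (Rex1), the usual reporter of the naive state, had levels of 14.45 and 12.68, 3.41-fold lower. Dppa3 (Stella), a maternal and germline factor, read 12.07 and 10.51 (2.95-fold lower). Prdm14, which represses Fgf signalling and DNA methyltransferase genes in naive cells, read 9.42 and 8.05 (2.58-fold lower). The 3 members that were not 2-fold apart were Nanog (13.83 and 13.26), Sall4 (13.15 and 12.85) and Dppa5a (15.43 and 14.63), each with a lower value on day 4. Of these, Nanog was 1.48-fold lower. In the deletion line, where 4.07% of all genes were lower, 8 of the 21 genes were lower and the median difference was -0.83. Fgf4, the growth factor that stem cells secrete, read 12.13 and 10.41 with full-length DNMT1, while the deletion line had 11.30 and 11.90. At day 7 in the full-length line, with Activin A and serum replacement in the medium, Zfp42 stood at 13.74, Dppa3 at 12.12 and Klf4 at 10.08, each above its day 4 level.

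Genes shared by naive and later pluripotent cells differed less. In that list of 16 measured genes 5 (31.2%) were lower and 0 higher, with a median of -0.56. Zfp57, which keeps imprints methylated, read 8.18 and 6.25 (3.81-fold lower). Dppa2 read 13.21 and 11.57 (3.12-fold lower) and its partner Dppa4 12.66 and 11.66 (exactly at the 2-fold threshold). Alpl, the alkaline phosphatase stained in stem cell colonies, was 2.68-fold lower (9.71 and 8.29). Rex2 was the fifth, 2.51-fold lower (8.49 and 7.16). On the other side of 0 stood Lin28a, an RNA-binding protein that blocks let-7 maturation, at 11.73 and 12.57 (1.79-fold higher, its 2 probe sets at 0.80 and 0.84). Pou5f1, Utf1, L1td1, Trim71 and Epcam were all less than 1.5-fold apart.

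Formative and primed epiblast genes were higher. Of 22 measured genes 13 (59.1%) were higher, against 8.14% of all genes, 1 was lower, and the median difference was 1.39. Fgf5, the growth factor that marks formative epiblast, had a level of 5.52 at day 0 and 11.70 at day 4, 72.5-fold higher. This was the highest difference of any measured gene, and its second probe set was at 4.31. In the deletion line Fgf5 went from the floor to 10.26, and at day 7 it read 9.21 and 7.80, full-length line first. Pim2, a kinase gene related to Pim1 and Pim3, read 9.53 and 13.03 (11.3-fold higher), the opposite direction to those genes. Sall2, a zinc finger gene, read 6.76 and 9.88 (8.69-fold higher). Pou3f1 (Oct6), a partner of Otx2 in the formative state, read 9.68 and 11.69 (4.03-fold higher) and Otx2 10.37 and 12.06 (3.23-fold higher). The Sox genes Sox3 and Sox11 were 2.85-fold and 2.79-fold higher, although the 6 probe sets of Sox11 ran from 0.56 to 1.48. Zic2 was 2.46-fold higher (9.57 and 10.87), while Zic5 was level at 11.51 and 11.48. Etv4, an ETS factor downstream of Fgf signalling, was the 1 gene that was lower, from 8.73 to 6.18 (5.86-fold). Nodal, Lef1, Tcf15 and Foxd3 were less than 2-fold apart.

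**Figure D3:**
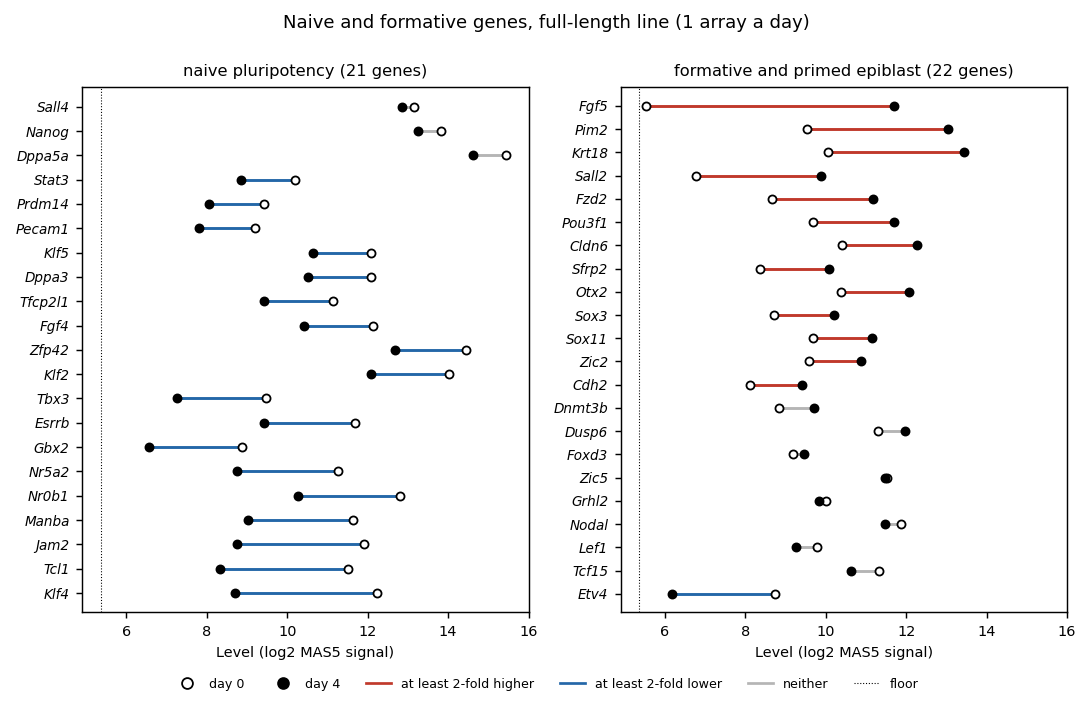
Level on the day 0 array (open circles) and the day 4 array (filled circles) of the full-length line, x axis in log2 MAS5 signal, for the 21 measured naive genes (left) and the 22 measured formative and primed genes (right), coloured as red for higher, blue for lower and grey for neither, with a dotted line at the floor. On the left 18 genes are lower and none is higher, and on the right 13 are higher and 1 lower, with Fgf5 moving from 5.52 to 11.70.

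Fgf and ERK pathway genes went both ways: of 26 measured, 6 were higher (23.1%) and 5 lower, and the median of 0.065 turned to -0.045 when the arrays were centred. The ligands split. Fgf8, a ligand of the primitive streak, went from the floor to 9.43, at least 16.7-fold higher, and stayed at the floor at both days in the deletion line. Fgf13 was 2.31-fold higher, whereas Fgf4 was 3.29-fold lower. Fgf17 was 2.08-fold lower in its brightest probe set, but its other probe set was at -0.18. The receptors were not 2-fold apart, with Fgfr1 at 9.48 and 10.27 and Fgfr2 at 8.83 and 9.43. Among inhibitors that the pathway induces, Spry4 was 3.14-fold lower (10.23 and 8.58, 4 probe sets from -1.79 to -1.28), Spry1 was 2.16-fold higher (9.02 and 10.13) and Spry2 was level (10.75 and 10.91). Dusp6 and Etv5, whose levels are commonly used to read ERK activity, stood at 11.30 and 11.96 and at 13.27 and 12.72.

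Immediate-early genes, which growth factors and handling induce rapidly, were lower in many cases. Of 24 measured, 10 (41.7%) were lower, 2 (8.33%) higher, and the median was -0.56. Fos had levels of 13.41 at day 0 and 9.14 at day 4, 19.3-fold lower. Fosb went from 9.28 to the floor, at least 15.1-fold lower. Egr1 read 13.09 and 10.03, 8.34-fold lower, and Egr2 went from 7.41 to the floor, at least 4.13-fold lower. The deletion line had the same direction for these 4 genes, with Fos at 13.57 and 8.85 and Egr1 at 13.00 and 9.58. Zfp36, which destabilizes AU-rich mRNAs, read 10.72 and 8.93 (3.46-fold lower). Not all members followed. Jun stood at 9.32 and 9.62, Jund at 12.19 and 12.43, Atf3 at 7.27 and 8.01, and Klf6 was 2.16-fold higher (10.14 and 11.25). The time from medium change to lysis is not given in the sources used here, and its part in the result was not tested.

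Contractile genes were another group with many higher members. Of 23 measured, 10 (43.5%) were higher and 1 lower, with a median of 0.84. Acta1, the skeletal muscle actin, had levels of 7.20 and 12.22, 32.4-fold higher. Actc1, the cardiac actin, read 5.91 and 10.53, 24.6-fold higher. Cnn1, a smooth muscle calponin, read 6.30 and 10.00 (13.0-fold higher). Actins are close in sequence, so a probe set of this family may detect more than 1 member. Other members that were higher included Tagln, Tpm1 and Myl9, which bind or regulate actin or myosin. Tagln read 9.35 and 12.52 (9.0-fold higher), Tpm1 10.91 and 13.26 (5.10-fold higher, 3 probe sets from 1.77 to 2.49) and Myl9 9.48 and 10.99 (2.85-fold higher). Tnnc1, a cardiac troponin, was 6.87-fold higher (5.67 and 8.45). In the deletion line Acta1 read 6.67 and 9.54, and Tagln 9.73 and 10.59. Mylpf, a fast skeletal myosin light chain, was the 1 gene that was lower, 3.60-fold.

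Promoters of Acta1, Actc1 and Zfp36 each hold a CArG box, the element that serum response factor (SRF) is known to bind, which is shared by muscle actins and immediate-early genes. They are shown because these genes lay in opposite directions at day 4. All 3 are on the minus strand, Acta1 at chr8:123894776-123895025, Actc1 at chr2:114052876-114053125 and Zfp36 at chr7:28379229-28379478 of GRCm38.p6, and capitals mark the box and, in Zfp36, also a TTCNNNGAA match nearer the start.
Acta1: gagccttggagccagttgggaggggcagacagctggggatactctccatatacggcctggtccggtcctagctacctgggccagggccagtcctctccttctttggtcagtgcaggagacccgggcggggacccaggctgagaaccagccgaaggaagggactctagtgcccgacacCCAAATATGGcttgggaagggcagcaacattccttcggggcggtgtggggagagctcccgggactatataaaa
Actc1: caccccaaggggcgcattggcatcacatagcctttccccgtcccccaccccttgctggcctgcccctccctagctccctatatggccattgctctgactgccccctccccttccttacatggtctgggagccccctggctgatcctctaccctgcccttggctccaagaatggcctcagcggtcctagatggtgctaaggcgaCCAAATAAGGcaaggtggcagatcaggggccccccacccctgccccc
Zfp36: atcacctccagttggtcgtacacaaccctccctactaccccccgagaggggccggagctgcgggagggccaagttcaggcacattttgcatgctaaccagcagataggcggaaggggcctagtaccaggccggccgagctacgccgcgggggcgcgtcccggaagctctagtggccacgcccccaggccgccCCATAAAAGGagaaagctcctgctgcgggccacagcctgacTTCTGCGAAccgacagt
Of 24 contractile genes whose promoter was listed, 5 (20.8%) held a CArG box, and of 19 immediate-early genes 3 did (15.8%), against 1.62% of all 27025 genes. The contractile genes were Acta1, Actc1 and Myl9, which were higher, and Cnn2 (11.43 and 11.76) and Myl7 (7.49 and 6.74), which were not 2-fold apart. The immediate-early genes were Egr2, Srf and Zfp36, and all 3 were lower. Srf itself was 2.01-fold lower (10.04 and 9.03). The box was therefore present on both sides of the comparison.

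Among other signalling lists, Nodal and Activin genes were close to the background: of 22 measured, 1 was higher and 2 lower. Nodal read 11.87 and 11.46, and its inhibitor Lefty1 13.84 and 13.33. The Activin subunit genes were the ones that were lower, Inhba 5.17-fold (8.91 and 6.54) and Inhbb at least 9.68-fold in its brighter probe set (8.64 and the floor) but not in its dimmer one (6.43 and 6.22). Fst, the secreted inhibitor of Activin, was 3.94-fold higher (7.88 and 9.86). In the BMP list of 21 genes 5 were higher (23.8%) and 1 lower, with a median of 0.11 that centring brought to 0. Msx2, a BMP target, went from the floor to 8.51, at least 8.85-fold higher, Id2 was 2.57-fold higher (9.69 and 11.05) and Id1 was not 2-fold apart. Grem1, a secreted BMP inhibitor made by fibroblasts, went from 8.67 to the floor, at least 9.88-fold lower.

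Of 27 Wnt genes 8 were higher (29.6%) and 4 lower (14.8%), with a median of 0.41. Dkk1, a secreted inhibitor, was 8.34-fold higher (6.37 and 9.43), and the receptor gene Fzd2 was 5.74-fold higher (8.65 and 11.17, 3 probe sets from 1.77 to 2.52). Fzd5, another receptor, was 3.32-fold lower (10.94 and 9.21). Wnt8a went from the floor to 7.27, at least 3.75-fold higher, while Wnt5a read 7.28 and 5.37, next to the floor, 3.76-fold lower.

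Markers of the layers that form next were higher in part. Of 13 measured primitive streak and mesendoderm genes 3 were higher (23.1%), Fgf8, Amot and Eomes, and 0 were lower. Eomes, a T-box factor of the streak and of trophoblast, read 6.96 and 8.95 (3.97-fold higher, 2 probe sets at 1.65 and 1.99). Amot was 10.6-fold higher in its brightest probe set, but the other 2 were at 0.12 and 1.37. The streak genes Mixl1, Gsc, Lhx1, Tbx6 and Wnt3 were below the floor on average over the 6 arrays, so no direction was read for them. Foxa2 was near the floor, at 5.43 and 6.01.

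Extraembryonic endoderm genes were higher in 15 of 37 cases (40.5%) and lower in 3, with a median of 0.58. Afp, the fetal serum protein made by visceral endoderm, went from the floor to 8.84, at least 11.1-fold higher, with 3 probe sets from 1.51 to 3.47. Ttr, a thyroid hormone carrier, went from the floor to 8.69, at least 10.0-fold higher, and all 4 of its probe sets were at least 2.69 higher. Lrp2 (megalin), an uptake receptor, read 7.07 and 10.97 (14.9-fold higher), and Dab2, its endocytic adaptor, 7.90 and 10.02 (4.35-fold higher). Of the other visceral endoderm markers, Apoa1 went from the floor to 6.64, while Cubn (7.45 and 7.98) and Amn (7.34 and 8.06) were not 2-fold apart. These genes serve uptake and secretion in that epithelium. The factors Gata4 (6.45 and 6.68) and Gata6 (6.45 and 6.66), which specify it, were not 2-fold apart, and Hnf4a was lower, from 6.99 to the floor. In the deletion line, where 6.26% of all genes were higher, 20 of the 37 were higher, with a median of 1.35. Sox17, an endoderm factor, was 2.19-fold higher (6.83 and 7.96), and the deletion line went from 6.55 to 9.58.

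Trophoblast genes had the highest median of the 39 lists, 1.65 over 19 measured, of which 11 (57.9%) were higher and 2 lower. Krt8 and Krt18, the paired keratins of simple epithelia, were higher together. Krt8 had levels of 8.90 and 13.33, 21.6-fold higher, and its 3 probe sets spanned 4.23 to 4.43. Krt18 read 10.06 and 13.43 (10.3-fold higher), Krt19 7.08 and 10.30 (9.32-fold higher) and Krt7 6.61 and 9.80 (9.13-fold higher). These 4 keratins are found in trophoblast and in visceral endoderm alike. Krt8 and Krt18 were counted in the extraembryonic endoderm list as well, and Krt18 also in the formative list. Plac1, a placental gene, went from the floor to 9.29, at least 15.2-fold higher, and stood at 12.62 on day 7. Ascl2, an imprinted trophoblast factor, read 5.85 and 8.30 (5.46-fold higher, 3 probe sets from 1.41 to 2.45), and Gata3 went from the floor to 7.01. Rhox6 and Rhox9, X-linked homeobox genes, were 5.58-fold and 3.25-fold higher. Tfap2c, which trophoblast and naive stem cells share, was 2.35-fold lower (11.12 and 9.89).

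Epithelial junction genes were higher in 9 of 27 cases (33.3%) and lower in 0, with a median of 0.69. The claudins Cldn6, Cldn7 and Cldn3, which seal tight junctions, were 3.66-fold, 3.25-fold and 2.97-fold higher. Crb3, a polarity protein, was 2.97-fold higher (9.06 and 10.63, 3 probe sets from 1.19 to 1.57). Mesenchymal transition genes were lower in 7 of 19 cases (36.8%) and higher in 1. Cdh11, a mesenchymal cadherin, read 8.57 and 6.03 (5.82-fold lower), Zeb1 7.78 and 5.71 (4.20-fold lower) and Fn1, fibronectin, 13.18 and 11.64 (2.91-fold lower). Cdh2 (N-cadherin) was the 1 higher gene, 2.46-fold. Fibroblasts express Cdh11, Prrx1, Twist2 and S100a4 too, and the fibroblast list moved in the same direction, 23 of 36 lower; its part in the result was not tested.

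Blood and endothelium genes were higher in 7 of 22 cases (31.8%) and lower in 2 (9.09%), the receptor Kit (10.07 and 8.59) and the adhesion molecule Pecam1 (9.21 and 7.81). The embryonic globins made up the clearest group: Hbb-y went from the floor to 8.67 (at least 9.88-fold higher), Hbb-bh1 from 5.38 to 8.24 (7.26-fold) and Hba-x from the floor to 7.60 (at least 4.71-fold). Related globin genes are similar in sequence, so a probe set may read more than 1 of them. Flt1, a VEGF receptor, was 4.03-fold higher (7.24 and 9.25, 4 probe sets from 1.94 to 2.23), and Tal1 and Lmo2, which specify blood progenitors, were 2.08-fold and 2.10-fold higher at low levels (6.95 and 7.91 at day 4). In neuroectoderm the counts were nearly even, 4 higher (22.2%) and 5 lower (27.8%) of 18. Sox1 was 3.81-fold higher (6.70 and 8.63) and Sox21 4.35-fold lower (9.0 and 6.88). No HOX gene of 12 measured was 2-fold apart, and 17 others were below the floor on average over the 6 arrays.

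**Figure D4:**
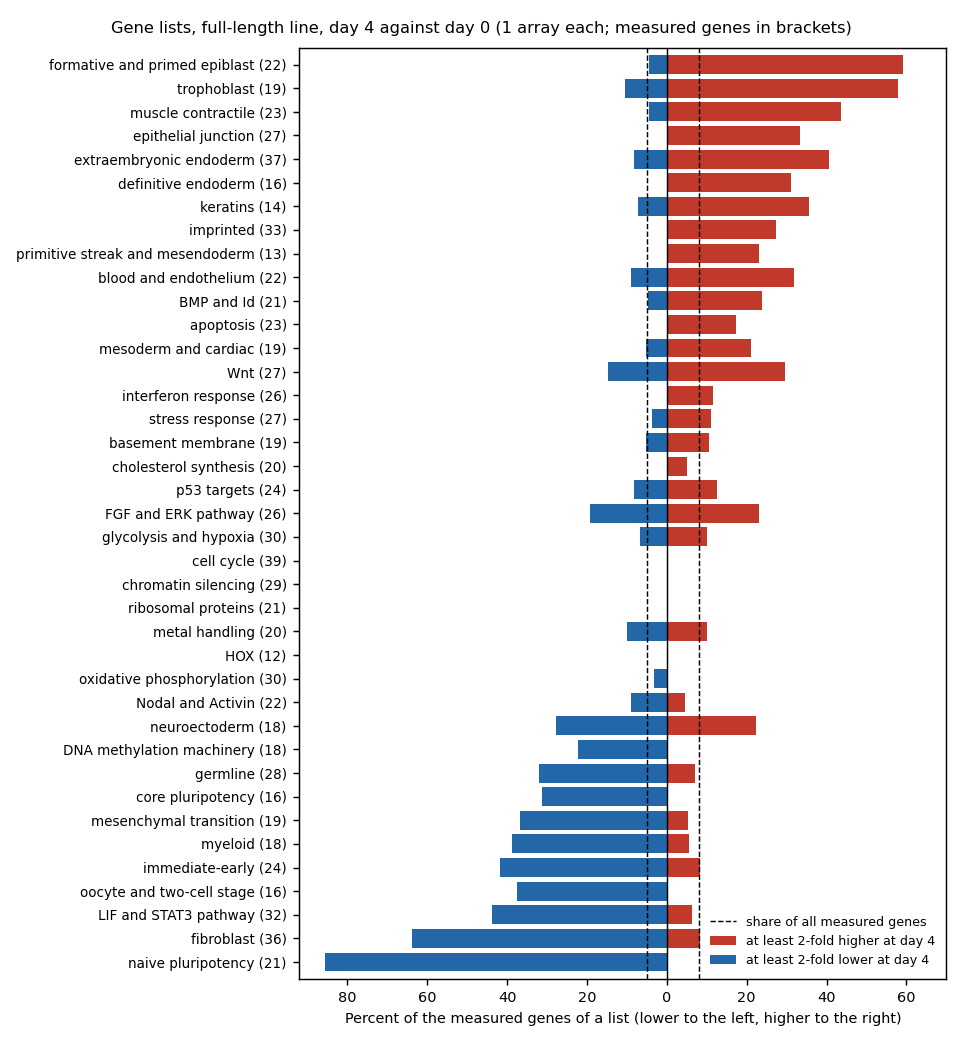
Percent of the measured genes of each of 39 lists that were at least 2-fold higher (red, to the right) or at least 2-fold lower (blue, to the left) on the day 4 array than on the day 0 array of the full-length line. Lists are ordered by the percent higher minus the percent lower, with the number measured in brackets. Dashed lines give the share over all 13277 genes, 8.14% higher and 5.03% lower; formative, trophoblast and contractile genes reach furthest to the right and naive, fibroblast and LIF genes furthest to the left.

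The genes with the lowest values at day 4 were in part those of fibroblasts and myeloid cells. Lyz1, a lysozyme of macrophages and a close copy of Lyz2, went from 10.20 to the floor in its brightest probe set, at least 28.5-fold lower. Another probe set was at -2.55, and the remaining one was at the floor on both days. A probe set of such close copies may read both genes. Tnc, a matrix protein, went from 9.94 to the floor, at least 23.8-fold lower. Bgn, another matrix protein, read 11.08 and 7.68, 10.6-fold lower, and its 3 probe sets ran from -4.96 to -3.40. S100a4 was 14.9-fold lower (9.54 and 5.64). Of 18 measured myeloid genes 7 (38.9%) were lower, against 5.03% of all genes, and 1 higher, with a median of -0.75. The summed signal of these 18 genes was 4370 at day 0 and 1303 at day 4. The defining gene of white blood cells, Ptprc, read 5.38 and then the floor, Tyrobp read 5.94 and 5.83, and Csf1r 6.86 and 7.10. The deletion line was higher in both lists at day 0, with summed signals of 34784 for fibroblast and 14697 for myeloid genes. At its day 4, 29 of 36 and 14 of 18 genes were lower, against 4.07% of all genes. The part of such cells in the result was not tested.

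Germline genes were lower in 9 of 28 cases (32.1%) and higher in 2, with a median of -0.65. Stra8, which starts meiosis, read 9.13 and 6.36 (6.82-fold lower), Dazl, an RNA-binding protein of germ cells, 11.40 and 9.45 (3.86-fold lower, 2 probe sets at -1.95 and -1.72) and Smc1b, a meiotic cohesin, 9.50 and 7.18 (4.99-fold lower). At day 7 Stra8 read 9.42. Oocyte and two-cell stage genes were lower in 6 of 16 cases (37.5%) and higher in 0. Khdc3 and Ooep, parts of the oocyte's subcortical complex, were 10.4-fold (11.04 and 7.66) and 4.08-fold (11.61 and 9.58) lower. Imprinted genes were higher in 9 of 33 cases (27.3%) and lower in 0: Nnat was 9.92-fold higher (9.91 at day 4), Plagl1 5.54-fold (10.17 and 12.64) and Peg3, with 3 probe sets from 1.13 to 2.12, 2.19-fold (11.97 and 13.10). Of 18 genes of DNA methylation 4 (22.2%) were lower, against 5.03% of all genes, and 0 higher. Tet1 and Tet2, which oxidise methylated cytosine, were 2.77-fold (12.91 and 11.44, 4 probe sets from -2.08 to -1.47) and 2.58-fold (10.48 and 9.11) lower. Dnmt3l was 3.27-fold lower (12.83 and 11.12), and in the deletion line it read 13.00 and 13.26. Uhrf1, the partner of DNMT1, stood at 12.68 and 12.45.

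Lists of general cell functions stayed near the centre. None of 39 cell cycle genes, 29 chromatin silencing genes or 21 ribosomal protein genes was 2-fold apart, with medians of -0.24, -0.12 and -0.18; the last turned to 0.028 with quantile normalization. Among 30 genes of oxidative phosphorylation 1, Cox7a1, was lower (2.03-fold). In interferon response genes 3 of 26 (11.5%) were higher, near the 8.14% of all genes, and 0 lower. Psmb8, an immunoproteasome subunit, was higher by 6.87-fold (7.78 and 10.56) and the class I genes H2-K1 and H2-D1 by 2.19-fold and 2.41-fold. Class I genes are close copies and their probe sets may cross-read. Apoptosis genes were higher in 4 of 23 cases (17.4%) and lower in 0, led by Casp8 (7.49 and 9.13, 3.12-fold). p53 targets (3 of 24), glycolysis genes (3 of 30) and stress genes (3 of 27) held shares of higher genes close to that of all genes, with 2, 2 and 1 lower.

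Some of the farthest genes belonged to none of the signalling or lineage lists. Slc39a8, a zinc and manganese importer, had levels of 5.46 and 11.22, 54.2-fold higher, with its second probe set at 3.49. Car4, a carbonic anhydrase on the cell surface, read 7.61 and 12.29 (25.6-fold higher, its 2 probe sets at 4.62 and 4.68). Chst15, a sulfotransferase, went from the floor to 10.14 in its brightest probe set, at least 27.4-fold higher, with its second probe set at 2.11. Calcr, the calcitonin receptor, read 5.49 and 9.69 (18.4-fold higher). These 4 genes were higher in the deletion line as well, where Slc39a8 read 5.43 and 9.86 and Car4 7.07 and 11.31. Slc40a1, the iron exporter, was 6.45-fold higher (8.04 and 10.73). Of 20 metal genes measured 2 (10%) were higher and 2 (10%) lower, against 8.14% and 5.03% of all genes. Among those farthest in the other direction were Nphs1 (nephrin, 10.78 and 7.27, 11.4-fold lower) and Triml1 (11.31 and 7.89, 10.7-fold lower). Myo1f, a myosin of white blood cells that is on the myeloid list, was at least 12.8-fold lower. Triml1 read 10.99 and 10.14 in the deletion line.

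**Figure D5:**
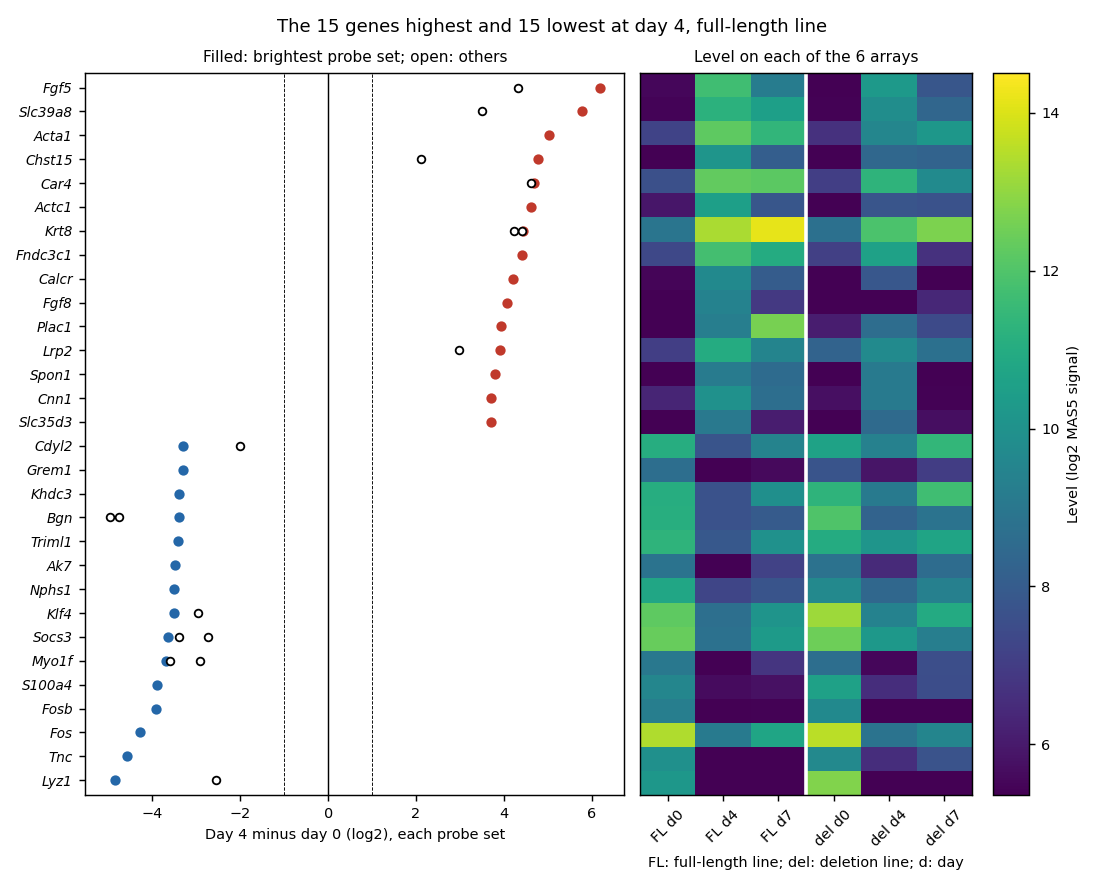
Left, day 4 minus day 0 (x axis, log2) for the 15 genes highest and 15 lowest at day 4 in the full-length line, filled points for the brightest probe set and open points for the others, with dashed lines at 2-fold. Only probe sets that reached 2 times the floor on the day 0 or day 4 array are drawn, so dimmer ones are left out. Right, the level (colour, log2 MAS5 signal) on each of the 6 arrays, full-length line first; Fgf8 stays at the floor on the deletion line's day 0 and day 4 arrays, while Fgf5 is bright on both day 4 arrays.

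The deletion line shares no array with the comparison and can be set beside it. Of the 1081 genes higher in the full-length line 407 were also at least 2-fold higher in the deletion line, which is 37.7% of the first set and 49% of the 831 in the second, where 6.26% of all genes were higher. Of the 668 lower genes 228 were also lower there, 34.1% of the first set and 42.2% of the 540 in the second, where 4.07% of all genes were lower. In the opposite direction lay 17 of the 1081 and 9 of the 668. By support from probe sets, the shared genes were 110 of the 224 higher genes with every probe set at least 2-fold apart (49.1%), 53 of the 145 with only some (36.6%) and 244 of the 712 with 1 probe set (34.3%). For the lower genes these numbers were 43 of 106 (40.6%), 19 of 111 (17.1%) and 166 of 451 (36.8%). The genes counted in the full-length line had a median difference of 1.40 there and 0.74 in the deletion line if higher, and -1.41 and -0.64 if lower; since they were selected in the full-length line, the smaller size in the other line is no test of a difference.

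Probe sets of 5 genes were at least 2-fold apart in opposite directions, so no direction is given for Dpp4, Tgm2, Pla2g6, Egfr and Sel1l3. Egfr had probe sets from -1.09 to 2.46, and Sel1l3 from -1.04 to 2.95.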

How the data were processed

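RNA of 6 samples was hybridised to Affymetrix mouse arrays with biotin label. The deposited values are log2 signals; per the submitters' processing notes the authors used MAS5. Its version, the scaling target and the log base are not stated there. Log2 was inferred from the values: turned back to linear signals and trimmed by 2% at both ends, they had a mean of 496.7 to 496.9 on each array, as global scaling would give. The sample titles gave line and day. The deletion line's day 0 sample has a source label of differentiated cells, and its title was followed.

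Of 45037 probe sets 34945 had 1 gene symbol in the platform annotation of 2016, 932 several and 9160 none. A gene took the probe set with the highest mean over 6 arrays. The floor was the median over arrays of the 40th percentile. No background was measured. No control probe sets or detection calls were used here, so RNA quality was not checked, and array number limits the precision.

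Genes named were the 15 highest and 15 lowest with the brighter array at 4 times the floor and all probe sets reaching 2 times the floor at least 2-fold apart in 1 direction, unnamed gene models left out; Dnmt1, Dnmt3a, Dnmt3b, Pou5f1, Sox2 and Nanog; members of the LIF, naive, core, formative and Fgf lists; up to 6 counted genes of each other list; genes with opposed probe sets; and cell type markers. Other genes named were chosen after their values were seen. The comparison, the 39 lists and the rule were written with earlier results of these data known, and the CArG box and gene families were added last. Of 1103 list entries, covering 988 genes, 806 genes were measured. A gene can be on several lists, so counts of different lists are not of separate genes. Python 3.11.15, numpy 2.4.6, pandas 2.3.3 and matplotlib 3.10.9 were used, and counting was tested on simulated data. Alternatives changed the floor, filter, pseudocount, scaling, probe set rule and fold threshold.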

Additional observations from a re-analysis of the deposited data

Results flagged for a closer look

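Only list medians and genes chosen by the naming rule were looked at here. By brightest probe set, the following lay in opposite directions in the full-length and the deletion line between day 0 and day 4. Over all genes, 17 of the 1081 higher and 9 of the 668 lower genes were counted in the opposite direction in the deletion line. With 1 array a point, none of these differences was tested. Fst, the secreted Activin inhibitor, was 1.98 higher on the log2 scale at day 4 with full-length DNMT1 (7.88 and 9.86) and differed by -2.02 with the deletion (9.30 and 7.28), a gap of 4.00 between the lines. Krt6a, a keratin of stratified epithelium, differed by 1.23 (5.98 and 7.21) and, near the floor, by -1.02 (6.38 and the floor), a gap of 2.25. Dpp4, a surface peptidase, differed by -1.23 (8.05 and 6.82) and 1.47 (6.64 and 8.11), a gap of -2.70. Its probe sets in the full-length line pointed both ways, so no direction is given for it there. The median of the 20 cholesterol synthesis genes was 0.28 with full-length DNMT1 and -0.62 with the deletion, a gap of 0.90. In the full-length line 1 of the 20 was counted as higher, Sc5d, a sterol desaturase (9.21 and 10.38). In the deletion line 6 were counted as lower, where 4.07% of all genes were lower.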

How the results depend on the processing

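The counts moved with the fold threshold and with the number of probe sets asked for. At 1.5-fold 2166 genes were higher and 1453 lower, at 4-fold 203 and 118, and with at least 2 probe sets that all reached 2-fold 224 and 106. Under the other 9 alternatives both counts stayed within 1.5 times those reported. The median of the naive list was -1.56 when probe sets of a gene were averaged, the 1 alternative that moved it past its limit, and the medians of the formative and LIF lists did not move past theirs under any alternative run. Over all lists 15 of 351 list medians moved, and 253 of 2176 differences of named genes did, 88 of them when probe sets were averaged and 78 with a pseudocount of 32 in place of the floor. No difference of a named gene that had been counted changed sign. No paired analysis was possible because each line and day has 1 array. Changes were not read for the 4916 genes whose mean signal over the 6 arrays was below the floor. Without that filter 1093 genes were higher and 674 lower. With 1 culture a day the spread between cultures is unknown.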

Other observations

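Some gene families outside the lists above held several genes that were higher at day 4; they were picked by symbol after their values were seen, and their counts are a description, to be read beside the 8.14% of all genes that were higher. All 3 measured insulin receptor substrates, the adaptors of insulin and IGF receptors, were higher. Irs1 read 6.95 and 10.33, Irs2 went from the floor to 8.18, and Irs4 read 7.67 and 9.67, and all 3 were also counted as higher in the deletion line. Of 11 carbonic anhydrases 6 were higher and 0 lower, with a median of 1.01. Beside Car4 these included Car2, the main cytosolic form (11.24 and 13.60), and Car14, a membrane form (7.41 and 10.38), and 5 of the 11 were higher in the deletion line too.

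Some genes of guidance molecules were also higher. Of 8 ephrins, the membrane ligands of Eph receptors, 4 were higher and 0 lower. Efna1 read 5.60 and 7.72 and Efnb2 7.93 and 10.01, and 1 of the 8 was higher in the deletion line. Their receptors went both ways, with 3 of 7 higher and 2 lower: Epha1 read 6.98 and 9.32, and Epha4 9.22 and 7.25. Of 18 semaphorins 4 were higher and 0 lower, with a median of 0.18, and in the deletion line 1 was higher and 1 lower. Sema3c, a secreted form, read 6.66 and 10.12, and all 4 probe sets of Sema3e (8.10 and 10.88) were at least 2.51 higher. The collagens went both ways, with 6 of 30 higher and 9 lower. Col4a1 and Col4a2 of basement membranes and the fibrillar Col2a1 were among the higher, and Col1a2, Col3a1, Col6a1, Col6a2 and Col6a3 were among the lower.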
